A study of Mus musculus with 4 samples.

Results

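Dense clusters of CTCF sites are stretches of the genome in which 4 or more CTCF summits follow each other at distances of at most 5 kb. They were chosen from the peak calls themselves. Peaks that passed an irreproducible discovery rate (IDR, a measure of how poorly a call repeats between replicates) of 0.05 were taken on chromosomes 1 to 19. The peak of highest signal was kept in each set of overlapping peaks, and neighbouring summits at most 5 kb apart were joined into chains. Of 60415 chains, 1898 (3.14%) held at least 4 summits. They contained 8890 of the 84629 autosomal sites, 10.5% (95% exact interval 10.3 to 10.7, counting error only).

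The sites came from chromatin immunoprecipitation and sequencing (ChIP-seq) of CTCF in hippocampal tissue of male B6CASTF1/J mice, a first-generation hybrid strain, aged 2 months. The 4 libraries formed 2 biological replicates of 2 technical libraries each. Each replicate was a pool of 7 tissue samples, with no treatment and no second group, so no comparison between conditions exists. Peaks were deposited per replicate and not per technical library or per parental allele, all cell types of the tissue were mixed, and the depth of the libraries is unknown.

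CTCF is a zinc-finger protein that binds a long DNA motif in a fixed orientation and halts cohesin, the ring complex that extrudes chromatin loops. Loops form mostly between CTCF motifs that point toward each other, so the strand of a motif is part of its function. Rows of adjacent CTCF sites are known from topological domain boundaries, imprinting control regions and the promoters of the clustered protocadherins.

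The motif-centred sequences show how unlike or how alike the sites of a cluster can be. Capitals mark the match to the CTCF core motif, a consensus of 12 letters searched on both strands within 50 bp of the summit with at most 1 mismatch. Of all autosomal sites 51.9% held it, and 2.18% of windows of the same length placed 1 kb from the cluster summits. Each window is written 5′ to 3′ along the strand of its motif, from RefSeq's GRCm38.p6 assembly (the assembly that mm10 names). Windows have 40 bases, or 30 where they touch an annotated untranslated region. The first set is the cluster at Prss57 and Palm at chr10:79780086-79796104, which has the most motif-bearing sites, 9 of 11, among the 10 largest clusters, a number shared with the cluster near Numbl, whose summed signal is lower. Site numbers count from the first summit.
Palm site 1, minus strand, chr10:79780079-79780118: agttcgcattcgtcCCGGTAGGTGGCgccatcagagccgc
Palm site 2, plus strand, chr10:79781370-79781409: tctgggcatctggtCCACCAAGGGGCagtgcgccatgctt
Palm site 3, plus strand, chr10:79783242-79783271: atgtctgccCCAGTAGAGGGCtgaaattca
Palm site 4, minus strand, chr10:79784077-79784116: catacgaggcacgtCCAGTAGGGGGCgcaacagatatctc
Palm site 5, minus strand, chr10:79786729-79786768: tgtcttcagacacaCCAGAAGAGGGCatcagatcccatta
Palm site 6, minus strand, chr10:79788573-79788612: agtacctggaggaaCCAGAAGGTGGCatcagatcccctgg
Palm site 8, plus strand, chr10:79791380-79791419: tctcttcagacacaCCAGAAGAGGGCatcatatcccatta
Palm site 9, plus strand, chr10:79792015-79792054: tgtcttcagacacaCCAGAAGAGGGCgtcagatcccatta
Palm site 10, plus strand, chr10:79793516-79793555: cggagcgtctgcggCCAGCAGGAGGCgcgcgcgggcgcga
Over the 36 pairs of 40-base windows the mean identity was 46.2%, with a range of 25% to 97.5%. Sites 5, 8 and 9 are near copies of each other and lie in sequence that is 97% to 100% repeat-masked in the assembly, whereas sites 1, 3 and 10 have no masked base in the window around their summit.

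The second set is the cluster whose motif windows were the most alike of the 399 clusters with at least 4 motif-bearing sites. It lies near Cmklr1 at chr5:113580462-113592321 and overlaps the gene Wscd2.
Cmklr1 site 2, minus strand, chr5:113583256-113583295: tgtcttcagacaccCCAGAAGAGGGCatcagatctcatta
Cmklr1 site 3, plus strand, chr5:113586617-113586656: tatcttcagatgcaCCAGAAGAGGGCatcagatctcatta
Cmklr1 site 4, minus strand, chr5:113590802-113590841: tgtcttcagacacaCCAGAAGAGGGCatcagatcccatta
Cmklr1 site 5, minus strand, chr5:113592300-113592339: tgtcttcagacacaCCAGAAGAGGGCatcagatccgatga
Site 3 also had a match on the minus strand, and its window is centred on the plus-strand match. These windows shared 85% to 95% of their bases, with a mean of 90.8%, and 4 of the 5 sites of the cluster lie in repeat-masked sequence. The cluster's summed signal was 689 in replicate 1 and 715 in replicate 2, and the rule found it in neither single-replicate list. Across the 399 clusters the median of the mean identity was 47.9%, and 137 of them (34.3%) held at least 1 pair of windows with 80% identity or more. Window 4 of the Cmklr1 cluster and window 5 of the Palm cluster are the same 40 bases on different chromosomes.

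The third set comes from the cluster near Dand5 at chr8:84806237-84823864. Among clusters with a motif at every site and all motifs on a single strand it has the most sites, 6. It was chosen after its strands were seen.
Dand5 site 1, minus strand, chr8:84806210-84806249: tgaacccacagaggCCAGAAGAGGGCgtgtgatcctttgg
Dand5 site 2, minus strand, chr8:84811008-84811047: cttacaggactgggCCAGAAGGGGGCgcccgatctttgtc
Dand5 site 3, minus strand, chr8:84813228-84813267: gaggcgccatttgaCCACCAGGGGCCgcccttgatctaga
Dand5 site 4, minus strand, chr8:84815722-84815751: cgcttttagCCACTAGGTGGCaccgcgtcc
Dand5 site 5, minus strand, chr8:84819301-84819340: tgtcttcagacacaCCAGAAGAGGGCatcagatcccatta
Dand5 site 6, minus strand, chr8:84823845-84823884: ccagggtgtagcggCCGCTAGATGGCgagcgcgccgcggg
Sites 2, 3, 4 and 6 had a signal of 653, 730, 834 and 693, and sites 1 and 5 had 117 and 48.0. Both weak sites lie in windows that are at least 50.5% repeat-masked, and site 5 is again the same 40 bases as in the clusters at Palm and Cmklr1.

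The fourth set is from the cluster just upstream of H19, the maternally expressed noncoding RNA gene whose upstream imprinting control region is a textbook CTCF insulator. The nearest protein-coding start is that of Mrpl23, 45471 bp away. The first summit lies 1110 bp from the start of H19, and the 4 summits span 2573 bp at chr7:142579253-142581826. None of the 4 sites held the core motif with at most 1 mismatch. Capitals mark the 8-base word GGTGGCAG, or its closest form, written along the minus strand, from which H19 is transcribed. Of all 8-base words near these summits it is the one the 4 sites share with the fewest differences, 2 in all. It was derived from these sequences, and with at most 1 difference it was present on either strand at 22.6% of all cluster sites and in 14.1% of the windows placed 1 kb away.
H19 upstream site 1, chr7:142579246-142579285: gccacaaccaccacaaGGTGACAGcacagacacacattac
H19 upstream site 2, chr7:142580293-142580332: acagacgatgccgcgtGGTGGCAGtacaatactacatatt
H19 upstream site 3, chr7:142580748-142580787: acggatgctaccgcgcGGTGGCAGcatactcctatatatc
H19 upstream site 4, chr7:142581774-142581813: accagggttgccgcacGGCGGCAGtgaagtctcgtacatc
The combined signal of sites 1 to 4 was 145, 146, 311 and 454. In replicate 1 it was 66.9, 69.8, 168 and 211, and in replicate 2 it was 76.8, 75.8, 146 and 243, so both replicates placed the 2 stronger sites farthest from H19. The rule applied to the replicate 2 list alone also found this cluster, and applied to the replicate 1 list alone it did not, since 3 of the 4 sites are in that list.

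The same sequence recurred across the clusters. Among motif-bearing cluster sites in repeat-masked sequence the most frequent word of 20 bases, the motif with 4 bases on each side, was the one shown next, present without a difference at 373 cluster sites.
Most frequent word: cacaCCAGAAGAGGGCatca
With at most 3 differences it was found at 1663 of the 8890 cluster sites, 18.7% (17.9 to 19.5), and at 14.0% (13.7 to 14.2) of the 75739 other sites. Because the word was picked from the cluster sites themselves, this comparison is a description only. The third most frequent word, picked in the same way, was present without a difference at 0.675% of cluster sites and 0.663% of other sites. Repeat-masked sites made up 33.5% of cluster sites and 27.3% of other sites, and their part in the difference was not tested. For the most frequent word with at most 3 differences the share was 12.8% in chains of a single summit and 15.3% in chains of 2. It was 16.3% in chains of 3 and 20.4% (18.7 to 22.2) in chains of 6 or more. Of the cluster sites like the most frequent word 97.9% were repeat-masked, and their median signal was 105. Rodent short interspersed elements of the B2 family are known to have spread CTCF motifs through the mouse genome; the repeat family of each site was not assigned here. At least 1 site like the word was present in 1063 clusters (56.0%), and 436 clusters (23.0%) held 2 or more. Clusters held a mean of 4.68 sites, so such counts follow in large part from the share per site. Whether these sites group in clusters beyond that share was not tested. The cluster inside Pacsin1, a gene for a membrane-bending protein of synapses, had the most sites like the word, 6 of its 10.

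Clusters were mostly short chains. The number of chains fell from 44546 single summits to 10720 chains of 2, 3251 of 3, 1148 of 4, 432 of 5 and 187 of 6, and 131 clusters had 7 to 12 summits. Between first and last summit a cluster spanned a median of 8509.5 bp (quartiles 6592 to 10815 bp, range 1665 to 29071 bp). Neighbouring summits inside a cluster were a median of 2305.5 bp apart, with a range of 199 to 4999 bp. All clusters together covered 17.2 Mb, 0.719% of the autosomal sequence outside assembly gaps. The median cluster had 0.52 summits per kb, whereas the autosomes as a whole had 3.53 sites per 100 kb, and this difference follows from the rule.

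**Figure D1:**
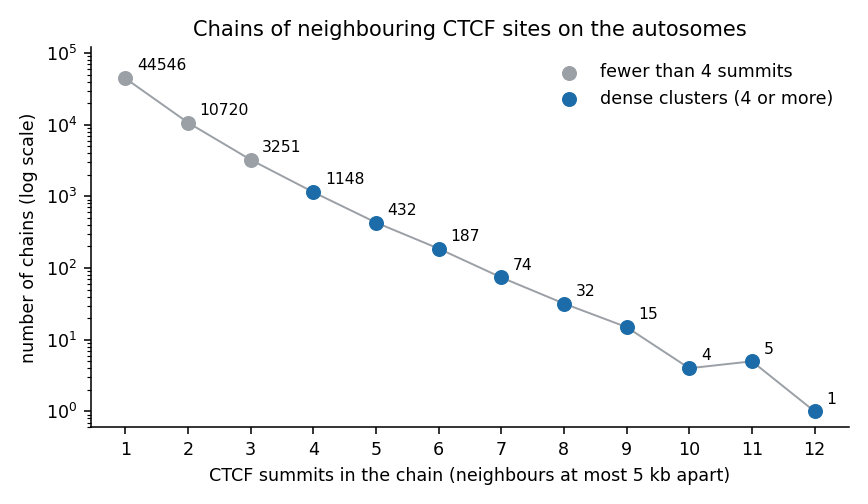
Number of chains (log scale) against the number of CTCF summits in the chain; blue points are the dense clusters and grey points the shorter chains. Counts decrease from 44546 single summits to 1148 chains of 4 and a single chain of 12.

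The limits of the rule cut through a continuous distribution. Chains of 4 summits, just inside, had a median span of 7346.5 bp and a median site signal of 189, and chains of 3, just outside, had 5053 bp and 190. Between neighbouring autosomal summits 1986 gaps measured 4501 to 5000 bp and 1898 gaps 5001 to 5500 bp. A limit of 5500 bp would give 2199 clusters. Clusters also lay near each other: 291 of 1879 neighbouring pairs on a chromosome (15.5%) were under 50 kb apart, against a median distance of 290 kb.

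The largest cluster lay over 3 F-box genes. Fbxo6, Fbxo44 and Fbxo2, which encode substrate-recognition subunits of ubiquitin ligases, share a stretch of chromosome 4 (chr4:148151557-148180628) with 12 summits in 29071 bp. Its summed signal of 4482 was also the highest of all clusters, with 2204 in replicate 1 and 2270 in replicate 2. These signals are the authors' values per peak, on a scale that is not stated, and serve here only to rank and describe sites of the deposited list. The strongest site, with 875, lay between genes 19406 bp from the first summit and carried a plus-strand motif. The 3 sites within 1 kb of a promoter, with 162, 397 and 168, carried none. The 2 weakest sites, with 52.4 and 78.9, lay in fully masked sequence at the distal end and carried a motif. Of the 7 motifs 6 were on the plus strand.

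Other large clusters differed in where their signal lay. At Prss57, a serine protease gene, and Palm, which encodes the membrane protein paralemmin, 11 summits summed to 3716 (1811 and 1917 in the replicates). The 3 strongest sites were 6, 10 and 1, with 838, 731 and 632, and the near-identical sites 5, 8 and 9 had 88.4, 91.9 and 109. The cluster inside Pacsin1 had 10 sites, 8 of them repeat-masked, and a summed signal of 1377 (663 and 706). None of its sites passed 262. The cluster named for Phf12, a gene for a chromatin reader of the Sin3 complex, also overlaps the gene Sez6. It had 10 sites and a motif at 2 of them, with a summed signal of 2304 (1078 and 1230). Its site at the Phf12 promoter had 76.4, and its strongest site, in an intron of Sez6, had 707. The clusters of 11 near Gnaz (3727), near Numbl (3102), at Tapbp and Rgl2 (2351) and at Dnah2 (1909), and those of 10 inside Dapk1 (3697) and near Nanos3 (3692), complete the 10 largest. All 10 were found again with the rule in each single-replicate list. The cluster near Nanos3 also spans the microRNA genes Mir23a, Mir27a and Mir24-2.

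**Figure D2:**
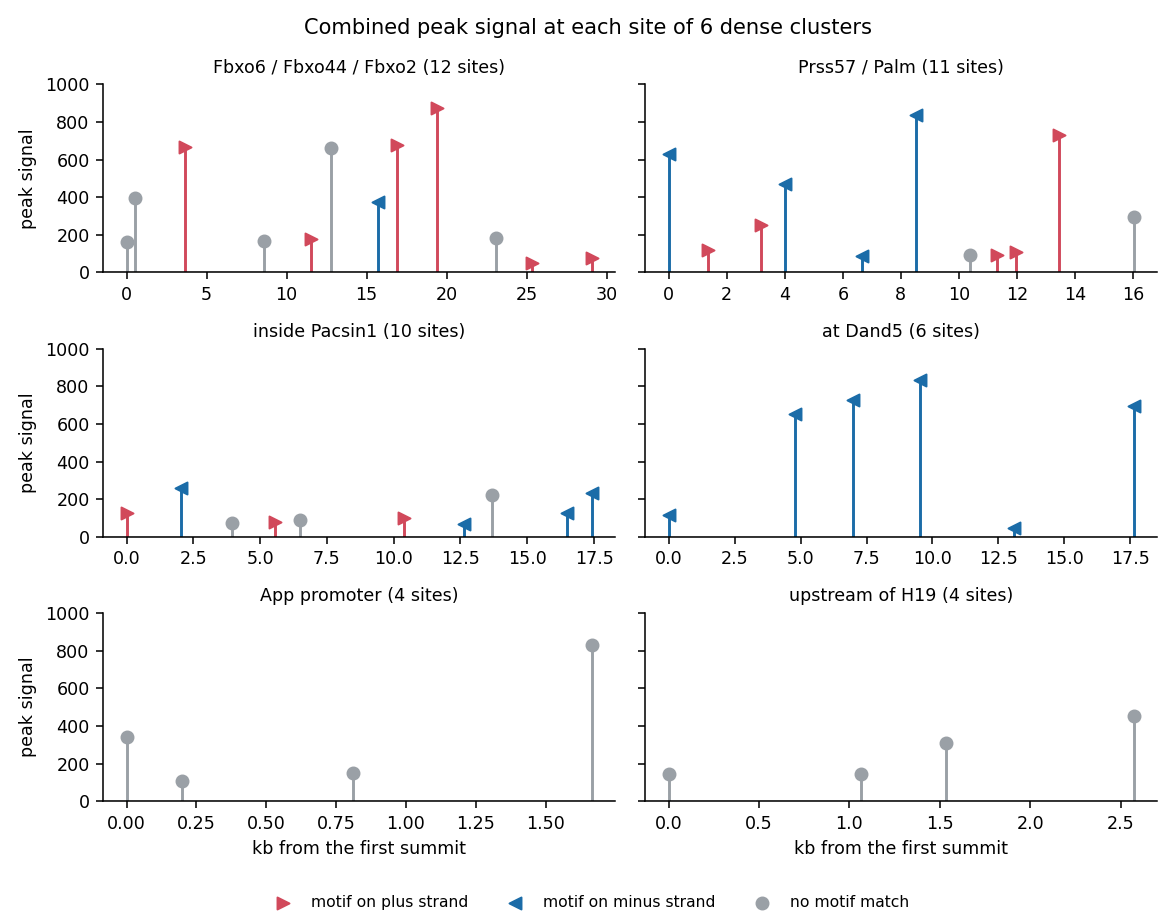
Combined peak signal of each site (vertical axis) against distance in kb from the first summit for 6 clusters; triangles give the strand of the core motif and grey circles mark sites without a match. Strong and weak sites are interspersed in the Fbxo6 and Palm clusters, no site of the Pacsin1 cluster exceeds 262, and the App and H19 clusters have no match.

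The densest cluster lay at the promoter of App, the amyloid precursor protein gene. At chr16:85172146-85173811 4 summits fell within 1665 bp, 2.40 per kb. From the intron to the start site their signals were 343, 109, 150 and 831, and the strongest lay 45 bp from an annotated start. In replicate 1 the values were 167, 45.9, 77.3 and 409, and in replicate 2 they were 180, 62.5, 72.1 and 426. The strongest site was the same in both. No site held the core motif, and none was repeat-masked. The cluster was not found in either single-replicate list or in the list of pooled reads, and 3 of its 4 sites are in each single-replicate list. Next in density came the divergent promoters of Cpeb3 and March5, which encode an mRNA-binding regulator of synaptic translation and a mitochondrial ubiquitin ligase, with 4 summits in 2554 bp. The cluster upstream of H19 followed, then those inside Plin1 (2684 bp) and near Fbxo11 (2733 bp). The cluster at Cpeb3 and March5 was found in the replicate 1 list only, that inside Plin1 in both and that near Fbxo11 in neither.

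The clusters with the highest summed signal were not all large. Near Smug1, a gene of DNA base excision repair, 6 sites at chr15:103172735-103185969 summed to 4386, with 2119 in replicate 1 and 2273 in replicate 2. Every site there was strong, from 557 to 931, and none was repeat-masked. The cluster of 9 near Fxyd2 summed to 4215 and that of 8 near Tmem121 to 4093.

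Within a cluster the signal was unequal. The strongest site of a cluster had a median signal of 683, the next 345, the third in rank 163 and the fourth 92.5, an order the ranking itself fixes. The strongest site was a median of 7.47 times the weakest and held 43.3% of the cluster's summed signal. It lay at an end of the cluster in 42.7% of clusters (40.4 to 44.9), and the share of a cluster's sites that are end sites was 44.4% as a mean over clusters. The median signal of cluster sites was 187, that of other autosomal sites 172, a ratio of 1.08, with 1.09 from replicate 1 and 1.08 from replicate 2 signals. By chain size the median was 165 in single summits, 182 in chains of 2, 190 in chains of 3 and 180 in chains of 6 or more. The higher median was therefore not particular to clusters. In sequence, a motif was present at 66.1% of the strongest sites and at 59.0%, 50.4% and 46.5% of the next ones. Over all autosomal sites the median signal was 238 with a motif and 135 without, so this link was not particular to clusters. Repeat-masked windows, those in which at least 50% of bases within 50 bp of the summit were masked, made up 16% of the strongest sites and 27.5%, 38.4% and 43.0% of the next ones. The share at protein-coding promoters stayed between 13.1% and 14.6%. Sites like the recurrent 20-base word made up 7.22% of the strongest sites and 24.4% of the fourth. Outside clusters such sites also had a low median signal, 96.9 beside 172 for all sites there.

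**Figure D3:**
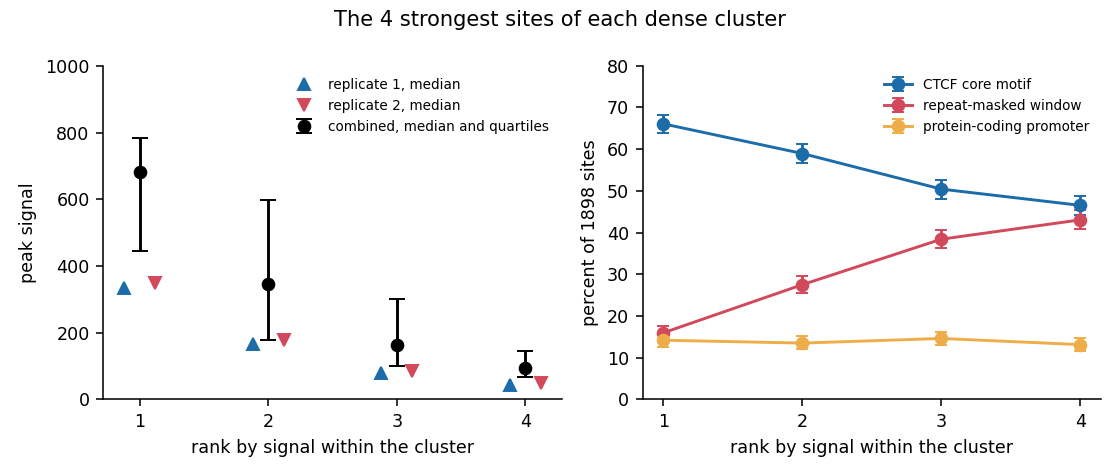
Left, peak signal by rank within the cluster: black points and bars are the median and quartiles of the combined signal, triangles the medians of each replicate. Right, percent of the 1898 sites of each rank with a core motif, a repeat-masked window or a protein-coding promoter, with 95% exact intervals; the motif share is 66.1% at rank 1 and 46.5% at rank 4, the masked share 16% and 43.0%.

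Promoters of protein-coding genes were part of many clusters. A start site lay within 1 kb of a summit in 814 of 1898 clusters, 42.9% (40.6 to 45.1). At least 2 genes were reached in 168 clusters, at least 3 in 25 and at least 4 in 9. No start site of any gene type lay within 1 kb in 939 clusters (49.5%). Placement by gene bodies used protein-coding genes only. Of the clusters without a protein-coding promoter, 507 lay inside at least 1 such gene, 202 crossed a gene end and 375 lay outside. Clusters placed outside can overlap genes of other types, as the cluster near Nanos3 does. In all, 1011 of 20807 autosomal protein-coding genes (4.86%) had a start site at a cluster, 12.5% of the 8067 genes with any autosomal site within 1 kb. Seen by site, 14.0% (13.3 to 14.8) of cluster sites were at a protein-coding promoter, whereas the share was 10.3% over all autosomal sites, 7.80% in single summits, 12.4% in chains of 2 and 13.7% in chains of 3. Promoters lie close to each other and close to other regulatory elements, and the part of gene density in this order was not tested.

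The gene lists differed in how many members had a start site at a cluster and in how many had any CTCF site. Of 57 clustered protocadherin genes, the cell-surface adhesion genes whose promoters are chosen through CTCF, 12 had a start site at a cluster (21.1%, 11.4 to 33.9), and 54 had any site, beside 4.86% of all genes in clusters. Of 32 activity-induced genes 7 were in clusters (21.9%, 9.28 to 40.0): Bdnf, Egr1, Egr4, Fosb, Klf4, Maff and Nr4a3. Fewer members were in clusters for replication-dependent histone genes (4 of 67), Hox genes (2 of 39), glial and vascular markers (2 of 35), and 1 gene each among imprinted genes (49), cohesin and architectural factor genes (22) and hippocampal subfield markers (26). Among members with any site the share in clusters was 31.8% for activity-induced genes (22 with a site), 28.6% for Hox genes (7), 22.2% each for protocadherins (54) and glial and vascular markers (9) and 17.4% for histone genes (23). It was 7.69% each for architectural factor genes (13) and subfield markers (13) and 4.76% for imprinted genes (21), beside 12.5% of all genes with a site. None of 42 synaptic and neuronal genes was in a cluster (upper limit 8.41%) although 24 had a site, and none of 51 developmental transcription factor genes (upper limit 6.98%) although 14 had a site. None of 1455 olfactory and vomeronasal receptor genes (24 with a site) and none of 22 liver genes (0 with a site) was in a cluster. Neighbouring members share clusters, so the genes of a list are not independent, and no test was made.

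At the gamma protocadherins the clusters were rows of promoters. At chr18:37742000-37755690 the 4 summits lay 94, 62, 61 and 41 bp from the starts of Pcdhgb6, Pcdhga10, Pcdhgb7 and Pcdhga11, with signals of 320, 203, 453 and 399. At chr18:37680204-37694312, summits 29 to 77 bp from the starts of Pcdhgb1, Pcdhga4, Pcdhgb2 and Pcdhga5 had 303, 279, 209 and 306. None of these 8 sites held the core motif with at most 1 mismatch. The summed signals were 691 and 683 in the replicates for the Pcdhgb6 row and 571 and 522 for the Pcdhgb1 row. Both rows were found again in each single-replicate list. The gap before the first summit was 5142 bp for the Pcdhgb6 row and 5952 bp for the Pcdhgb1 row. Gaps inside the rows were 4151 to 4966 bp, so the 5 kb limit sets where each row begins. The alpha gene pair Pcdha8 and Pcdha9 had 2 summits per gene, 1 at the start (90 and 125 bp away) and 1 further into the gene (526 and 570 bp away). There the motif was present at the inner site of both genes, on the plus strand, and signals were 94.2 and 201 at Pcdha8 and 287 and 82.0 at Pcdha9. A histone cluster at chr13:23745545-23752308 was also a row of promoters, of Hist1h3c, Hist1h2bb, Hist1h2ab and Hist1h3b, with 94.8 to 165 at its 4 sites and no motif. This histone cluster was not found in either single-replicate list. The cluster at Pcdha8 and Pcdha9 was found in the replicate 2 list only.

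The clusters at activity-induced genes mixed promoter and distal sites. At Fosb, which encodes a subunit of the AP-1 transcription factor, 7 sites at chr7:19296031-19310584 summed to 3630, with 1783 and 1856 in the replicates. The sites at the Fosb promoter had 124 and 427. A site at the start of a gene that is not protein-coding had 804, and the strongest, with 916, lay in the 3′ untranslated region of a transcript at the cluster's far end. A motif was present at 1 of the 7 sites, with 772. At Egr1, a zinc-finger transcription factor gene, 5 sites at chr18:34849469-34861652 summed to 2200 (1077 and 1129). The promoter sites had 737 and 396, and an intergenic site with a plus-strand motif had 801. At Bdnf, the neurotrophin gene with several alternative promoters, 5 sites at chr2:109690508-109697415 had 163, 164, 169, 596 and 101.2 in genome order, and the middle 3 lay 5 to 628 bp from annotated starts. The replicates gave this cluster 583 and 608. Maff, which encodes a small partner of CNC-family factors, had 3 promoter sites in a weak cluster of 4 with a summed signal of 338. The Maff cluster was not found in either single-replicate list, and those at Fosb, Egr1 and Bdnf were found in both.

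Clusters at members of the other lists ran from a summed signal of 430 at Kcnq1 to 2695 at Pdgfra, beside a median of 1341 over all clusters. Pdgfra, the receptor gene that marks oligodendrocyte precursors, had 9 sites at chr5:75143403-75164879 with 2695 in all (1291 and 1401), strongest at 637 in a promoter site 492 bp from a start. Myrf, a regulator of myelin genes, had 4 sites with 803 at the site 95 bp from its start. Grik4, a kainate receptor gene of the CA3 field, had 4 sites with 568 at the promoter. At Hoxd10 and Hoxd9 the promoter sites had 84.7 and 90.4, and the only motif-bearing site of the cluster, 10607 bp from the first summit, had 820. Adnp, a chromatin remodeller gene, had 5 sites with 1854 in all, and the Kcnq1 cluster, with 430, lay inside that imprinted potassium channel gene. The clusters at Kcnq1, Myrf and Grik4 were not found in either single-replicate list. The cluster at Hoxd10 and Hoxd9 was found in the replicate 1 list only, and those at Pdgfra and Adnp in both.

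Cluster density differed between chromosomes. Chromosome 11 held the most, 208 clusters or 17.5 per 10 Mb, with 15.9% of its sites in clusters. Chromosomes 19, 7, 17 and 5 followed with 12.5, 11.9, 11.6 and 11.5 per 10 Mb, and chromosomes 1, 14 and 13 had the fewest with 4.38, 4.36 and 4.27. Chromosomes 11, 19, 7 and 17 were also the 4 with the most protein-coding genes per Mb, led by chromosome 7. Elsewhere the orders differed: chromosome 2 ranked 5 by genes and 9 by clusters per Mb, and chromosome 12 ranked 19 and 13. CTCF sites per Mb numbered 53.0 on chromosome 11 and 42.5 on chromosome 19, and 28.8 on chromosome 14 and 29.0 on chromosome 13. The part of gene or site density was not tested. Of protein-coding gene models, 634 held at least 1 whole cluster, 55 at least 2 and 11 at least 3. Gse1 (353 kb) held 5, Camta1 (945 kb) held 4, and Macf1 (335 kb), Shank2 (423 kb), Fry (379 kb) and B3glct (84.4 kb) held 3 each. These genes were named after their counts were seen; the remaining 5 are the long annotated models of Fgfr2 (4 clusters in 2961 kb) and Gm20388 (15 in 4435 kb) and 3 models over the protocadherin genes of chromosome 18 with 4 clusters each.

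Cluster sites held the core motif at 4817 of 8890 summits, 54.2% (53.1 to 55.2), beside 51.9% over all autosomal sites. The share was 51.2% (50.7 to 51.7) in single summits, 52.0% in chains of 2 and 52.9% in chains of 3. The shares differed by where the site lay. Outside protein-coding promoters 59.4% (58.2 to 60.5) of cluster sites and 53.7% (53.2 to 54.2) of single summits had a motif, and at promoters 22.6% and 21.7%. Repeat-masked sites made up 33.5% (32.5 to 34.5) of cluster sites, 28% of all autosomal sites and 26.3% of single summits. In clusters 77.3% of masked sites held a motif and 42.5% of unmasked sites did, and over all autosomal sites 75.1% and 42.9%. The median signal was 119 at masked and 287 at unmasked cluster sites, and 110 and 245 over all autosomal sites. The median GC content within 250 bp was 47.7% at cluster sites and 44.3% at single summits. Motif-bearing and masked sites varied between clusters: 146 clusters had a motif at every site, 90 had none, 436 had no masked site and 36 were masked at every site. How reads from repeats were placed is not given in the sources used here, and its part in the masked shares was not tested.

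**Figure D4:**
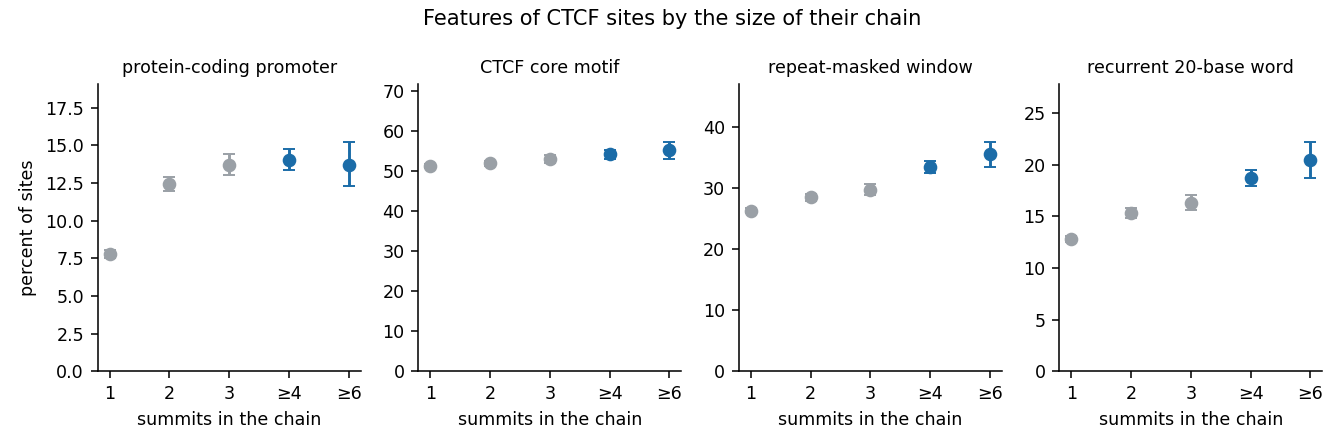
Percent of sites (points, with 95% exact intervals) at a protein-coding promoter, with the core motif, with a repeat-masked window and like the recurrent 20-base word, by the number of summits in the chain; blue marks chains of 4 or more and of 6 or more, the latter being part of the former. Repeat-masked windows make up 26.3% of single summits and 33.5% of cluster sites, the recurrent word 12.8% and 18.7%. The word was picked from cluster sites.

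The strands of neighbouring motifs were mixed. Of 2096 pairs of adjacent cluster sites with a motif on a single strand each, 54.7% (52.6 to 56.9) were on the same strand, 20.8% pointed toward each other and 24.5% away from each other. In 4818 such pairs from chains of 2 and 3 the shares were 53.1% (51.7 to 54.5), 21.8% and 25.1%, so the intervals overlapped. The same-strand share was 55.3% for pairs under 1 kb apart, 55.6% from 1 to 2 kb and 54.2% from 2 to 5 kb. Of 901 clusters with at least 3 such motifs 206 (22.9%) had all of them on a single strand, and of 387 with at least 4 motifs 60 did (15.5%). The longest such row had 7 motifs, all on the minus strand, near Rimbp2 at chr5:128962033-128981769, with a summed signal of 1129 in replicate 1 and 1211 in replicate 2. The cluster near Dand5, whose sequences are given above, followed with 6.

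Sites entered the list because their calls repeated between replicates, so the replicate values of a cluster are a description of selected sites. The summed signal was higher in replicate 2 by a mean of 0.09 ± 0.08 on the log2 scale (SD over clusters), with a range of -0.28 to 0.57. For single sites the mean was 0.10 with an SD of 0.22 in clusters and 0.10 with an SD of 0.21 outside. The largest ratios were at Nbr1 (206 and 306 in replicates 1 and 2), near Camta1 (298 and 411) and inside Golph3 (111 and 151). The smallest were at Maff (184 and 151), Myo1c (171 and 143) and Zfp37 (238 and 207). All 6 are clusters of 4 or 5 sites with a combined signal of 265 to 710.

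**Figure D5:**
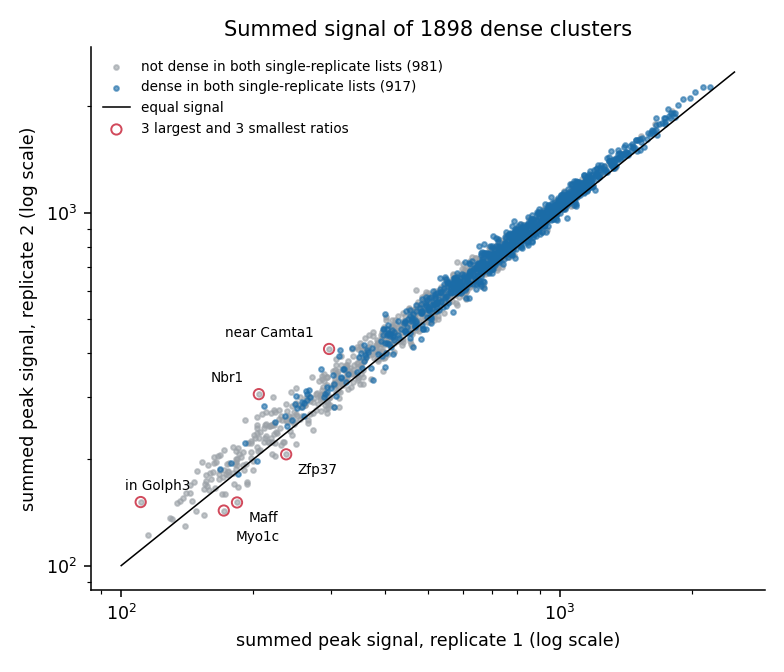
Summed peak signal of the 1898 clusters in replicate 2 against replicate 1 (both log scales, line of equal signal); blue clusters are found by the rule in both single-replicate lists and circles mark the 3 largest and 3 smallest ratios. Points lie along the line; the median combined signal is 1666 for the 917 blue clusters and 1071 for the 981 grey ones.

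The rule applied to the peak list of replicate 1 alone overlapped 1118 of the clusters with a dense cluster of its own (58.9%, 56.7 to 61.1), and to that of replicate 2 alone 1128 (59.4%). Both found 917 (48.3%), and the pooled-read list 947 (49.9%). A single cluster site had a summit within 100 bp in the replicate 1 list in 81.7% of cases and in the replicate 2 list in 81.9%, whereas other autosomal sites had one in 80.4% of cases in each. Every site was in both lists for 581 clusters (30.6%). By size, in the replicate 1 list 574 of 1148 clusters of 4 were found and 252 of 318 with 6 or more (79.2%, 74.4 to 83.6), and in the replicate 2 list 569 (49.6%) and 256 (80.5%). The between-replicate list and the single-replicate lists come from the same reads, so these overlaps are not independent.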

How the data were processed

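CTCF ChIP-seq peak lists of 4 libraries, grouped by the replicate number in the labels into 2 biological replicates, were used. The authors deposited peaks with a signal score and an IDR score per peak and a summit offset in bp (other values). Per the labels the build is mm10. The input control was not used, and neither aligner nor peak caller is given in the sources used here. A ranked between-replicate list carries each replicate's score. Of its first inputs 78.4% were found in the ranked list of replicate 1, and of its second inputs 80.3% in that of replicate 2, none crosswise. These ranked lists are not the thresholded single-replicate lists used for the results. Whether the pools hold separate animals is not stated. An IDR score of 540 marks an IDR of 0.05, one of 830 an IDR of 0.01, and 1000 is the highest.

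Chaining, the motif search and the strand pairs were computed from those lists. Genes came from GENCODE M21 (basic annotation), sequence and repeat masking from RefSeq's GRCm38.p6, the assembly that mm10 names. Masked bases were counted within 50 bp, GC within 250 bp of the summit. Each 95% interval (exact, by Clopper-Pearson) reflects counting error alone, and depth is unknown. No test was planned, since peak calls chose the members. The members and gene lists were chosen with earlier results of these data known. Clusters named are the 10 with the most summits, the 5 densest, the 5 with the highest summed signal (1 of them is not reported here), the 3 largest and 3 smallest replicate ratios and up to 3 per gene list; the clusters near Dand5, Rimbp2 and Cmklr1 come from the sequence and strand rules in the text. Likeness of windows needed at least 4 motif-bearing sites, a limit added later. A cluster is named by protein-coding promoters within 1 kb, else by the gene holding it, else by the nearest protein-coding start. Symbols matched the annotation except for 1 imprinted, 4 architectural, 3 synaptic, 1 subfield, 1 glial and 1 transcription factor name; 2 genes carry the symbol Pcdha11. Printed sequences exclude chromosome 18. The code was tested on simulated data, where 109 of 109 planted clusters were found. Planted motifs were exact and were searched there without a mismatch, and 100% of their strands were found. Strand recovery with 1 mismatch, as used for the results, was not simulated. Python 3.11.15, pandas 2.3.3, numpy 2.4.6, SciPy 1.17.1 and matplotlib 3.10.9 were used.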

Additional observations from a re-analysis of the deposited data

How the results depend on the processing

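The share of same-strand neighbouring motifs kept within its interval in 12 of 13 alternatives, moving to 59.1% of 93 pairs with an exact motif match. The number of clusters, 1898 as reported, was 441 with a gap limit of 2.5 kb, 4804 with 10 kb, 5149 with at least 3 summits, 318 with at least 6, 982 in the pooled-read list and 1250 to 1261 without either replicate; the other 3 alternatives stayed within 1.5 times. The share of sites in clusters was 2.25%, 31.3%, 22.0% and 2.53% under the same 4 limits, 8.70% at an IDR of 0.01, 12.8% with all summits kept, 6.69% in the pooled-read list, 10.3% with X, and 7.96% to 8.03% without either replicate. The promoter share was 35.1% with at least 3 summits, 52.8% with at least 6, 35.1% within 0.5 kb, 53.8% within 5 kb and 51.9% with the comprehensive annotation, and the other 8 values lay inside its interval. A cluster with more sites has more chances to reach a promoter. Seen by site, the promoter share was 13.7% in chains of 3 and 13.7% in chains of 6 or more. The motif share was 51.8% at 2.5 kb, 55.5% at an IDR of 0.01, 50.1% with all summits kept, 57.1% in the pooled-read list, 55.4% to 55.7% without either replicate, 10.1% for exact matches, 78.1% with 2 mismatches and 56.2% within 100 bp. The signal ratio, 1.08 as reported, moved by more than the SD of the 2 replicates' ratios (0.004) in 10 of 12 alternatives. All 12 values were above 1. By limit it was 1.19 at 2.5 kb, 1.08 at 10 kb, 1.11 with at least 3 summits and 1.04 with at least 6. It was 1.12 at an IDR of 0.01, 1.05 with all summits kept, 1.10 in the pooled-read list and 1.08 with X. Replicate 1 signals gave 1.09, and the lists without either replicate gave 1.09 to 1.11. The causes were not tested. No paired analysis was possible because the result comes from no test. No value per technical library exists, and depth is unknown.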
